A study of Rattus norvegicus with 8 samples.

Results

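Expression of 10 apoptosis genes, *Bok*, *Bak1*, *Bad*, *Bbc3*, *Bid*, *Bcl2l11*, *Mcl1*, *Bcl2l1*, *Bcl2* and the cochaperone gene *Bag1*, was examined on 8 Affymetrix arrays of rat intestinal epithelium. They were taken by gene name: every probe set (the set of short probes that reads a transcript) annotated to them was used, which gave 17 of 31099 probe sets and 10 of 14217 named genes. The groups were SeW, water with selenium (selenite by the study's methods) for 3 days; DSW1200, deep sea water of labeled hardness 1200 for 3 days; WR, water restriction for 12 h by the labels, where the methods also speak of a longer restriction; and TW, tap water for 3 days, with 2 arrays each. All came from Wistar rats of 4 months, female by the methods, and from epithelial cells shaken loose from the proximal small intestine. Nothing in the labels says whether the 2 arrays of a group came from separate rats, so each p-value measures only the spread between arrays, which may be technical.

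Proteins of the Bcl-2 family decide whether the outer membrane of mitochondria is opened, which releases cytochrome c and starts the caspases. Survival proteins (Bcl-2, Bcl-xL from *Bcl2l1* and Mcl-1) hold the pore-forming effectors in check, and BH3-only proteins such as Bad, Puma (*Bbc3*), Bid and Bim (*Bcl2l11*) bind the survival proteins or activate the effectors. Bag1 exchanges the nucleotide of Hsp70 chaperones and was named for its binding to Bcl-2. In the gut this pathway governs the death of damaged crypt cells, and selenium, water intake and mineral water were compared in the study for their action on oxidative stress and apoptosis genes.

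All signals below were normalized between arrays by quantiles, and a probe set was called dim, too weak to compare, when its geometric mean over the 8 arrays was at or below 6.69, the median of all probe sets. Of the 17 probe sets 12 passed and 5 were dim. By its brightest probe set, 9 of the 10 genes could be tested, and *Bcl2* could not. Before normalization the arrays differed: the median signal was 10.6 and 11.1 on the SeW arrays, against 6.1 to 9 on the DSW1200 and WR arrays and 4.3 and 8.4 on the TW arrays. The 3'/5' signal ratio of the beta-actin control probe sets, which is higher where the RNA or its copy is shortened, averaged 12.3 in SeW, 29.9 in DSW1200, 23.0 in WR and 22.3 in TW. No pair of arrays held identical values, and the correlation of log2 values within a group lay between 0.907 and 0.949.

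*Bok* and *Bag1* were the members that fell in SeW, and no member rose in any comparison. In SeW against TW 2 of 9 tested members passed an adjusted p of 0.05 (limma, Benjamini-Hochberg over 9258 tested genes), where 1.91% of all tested genes did. SeW against DSW1200 gave the same 2 members, with 2.72% of all genes past the threshold, and SeW against WR gave *Bok* alone, with 1.23% of all genes. None passed in DSW1200 against TW (0% of all genes), in WR against TW (0.0108%) or in DSW1200 against WR (0%). At an unadjusted p under 0.05 the counts were 5 members in SeW against TW (19.6% of all genes), 1 in DSW1200 against TW (7.92%), 3 in WR against TW (9.70%), 2 in SeW against DSW1200 (20.0%), 2 in SeW against WR (16.5%) and 1 in DSW1200 against WR (5.84%). A test for any difference among the 4 groups (limma's moderated F test) passed for *Bok* (adjusted p = 0.0291), where 0.616% of all genes passed, and gave 0.0909 for *Bag1*; at an unadjusted p under 0.05 it counted 4 members (17.6% of all genes).

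**Figure D1:**
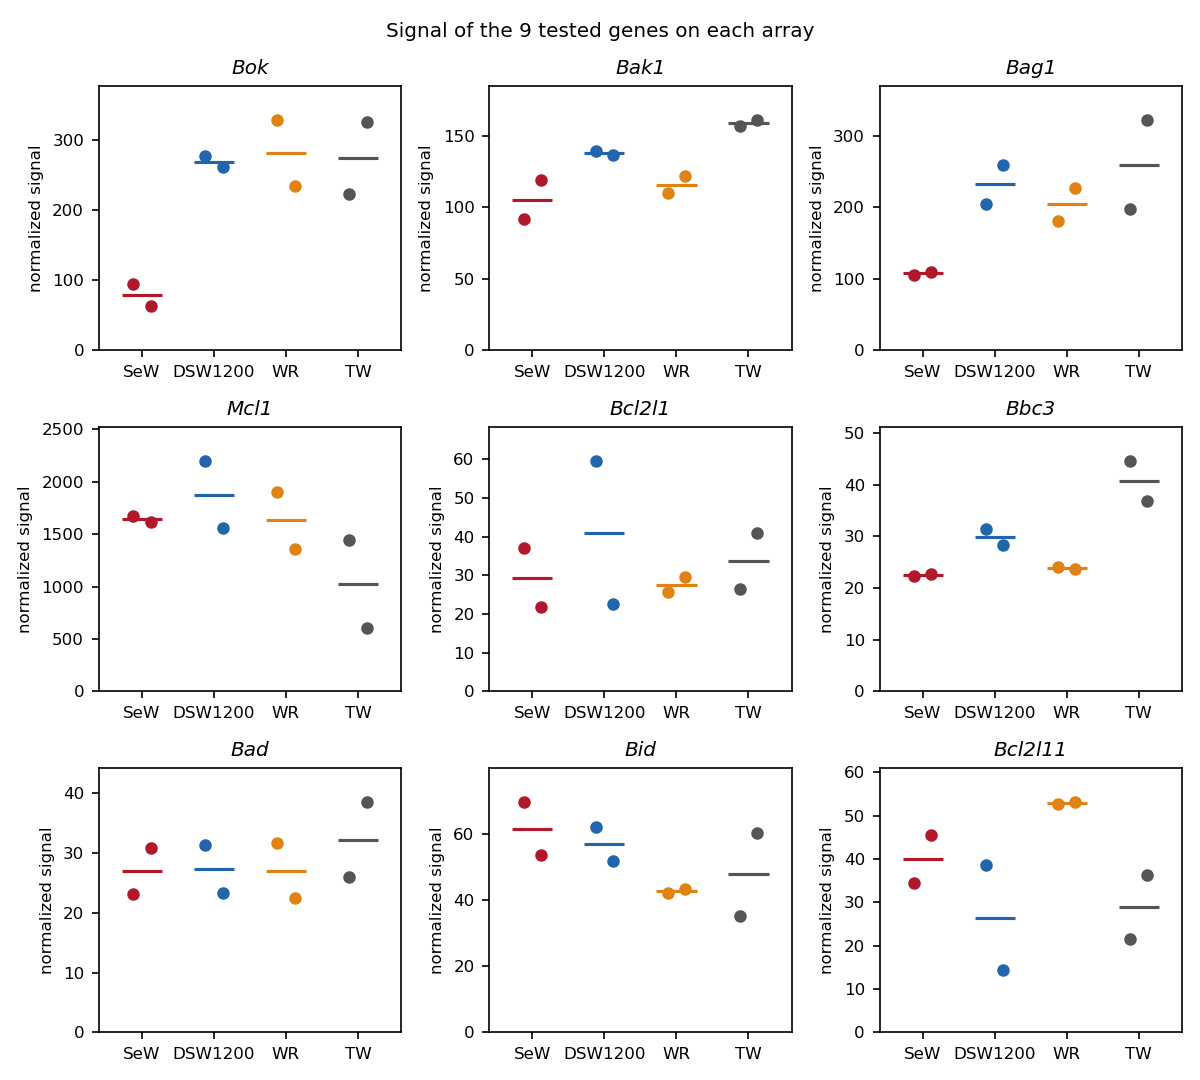
Normalized signal (linear axis from 0) of the 9 tested genes on each array, 2 points per group, with a line at the group mean. The SeW points of *Bok* (62.7 and 94.7) and *Bag1* (106 and 110) lie below the other 6 arrays, and the TW points of *Bak1* and *Bbc3* lie above the other 6, though their SeW means exceed TW with the values as deposited.

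Among the effectors, *Bok* codes for a pore-forming protein related to Bax and Bak that the survival proteins hardly bind. Its bright probe set read 94.7 and 62.7 in SeW, 276 and 261 in DSW1200, 327 and 234 in WR, and 223 and 325 in TW. Both SeW arrays lay far below the other 6, which overlapped one another. The mean was 78.7 ± 22.6 in SeW and 274 ± 71.7 in TW (SD, n = 2 each), a 3.49-fold lower level in SeW (log2 difference -1.80, SE 0.26, 95% interval -2.39 to -1.22, adjusted p = 0.0163). Against DSW1200 the difference was -1.80 (adjusted p = 0.0146) and against WR -1.84 (adjusted p = 0.0226). Because an array reads the RNA of many cells together, fewer cells that express a gene and less RNA per cell cannot be told apart here or for the genes below.

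In DSW1200 and WR *Bok* was near its TW level. The log2 difference was -0.00495 in DSW1200 (95% interval -0.59 to 0.58) and 0.04 in WR (95% interval -0.54 to 0.62), and neither interval excludes a smaller change in either direction. The other *Bok* probe set read 28.2 and 23.8 in SeW, 53.9 and 23.3 in DSW1200, 41.6 and 33.5 in WR, and 40.3 and 42.1 in TW. Here SeW was below TW and WR without overlap, one DSW1200 array was above both SeW arrays and the other below both, and the SeW minus TW difference was -0.67 (SE 0.36, adjusted p = 0.363 over 15523 probe sets). Averaging both probe sets gave -1.24 (adjusted p = 0.0682), so the call rests on the bright probe set.

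*Bak1*, the effector that sits in the mitochondrial membrane, read 91.8 and 119 in SeW, 140 and 136 in DSW1200, 110 and 122 in WR, and 157 and 161 in TW. Both TW arrays were above the other 6, and the SeW and WR arrays overlapped. In SeW against TW the log2 difference was -0.60 (SE 0.19, unadjusted p = 0.00897, adjusted p = 0.121), in WR -0.45 (adjusted p = 0.500) and in DSW1200 -0.20 (adjusted p = 0.738). On the values as deposited the SeW difference turned to 0.37.

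*Bag1* was measured by 1 probe set, with 106 and 110 in SeW, 205 and 260 in DSW1200, 180 and 228 in WR, and 197 and 322 in TW. The SeW arrays lay close together and below the other 6, while the TW arrays were 0.70 apart on the log2 scale, more than in 80.0% of tested genes. Its mean was 108 ± 2.72 in SeW and 260 ± 87.8 in TW (SD, n = 2 each), 2.33-fold lower in SeW (log2 difference -1.22, SE 0.25, adjusted p = 0.0401). The difference was -1.09 against DSW1200 (adjusted p = 0.0486) and -0.91 against WR, which did not pass (adjusted p = 0.119). Without TW replicate 2, the brighter TW array, the SeW minus TW difference was -0.87 (adjusted p = 0.113). As deposited, before arrays were brought to one scale, *Bag1* read 159 and 160 in SeW, 143 and 229 in DSW1200 and 173 and 218 in TW, so SeW and DSW1200 overlapped and the SeW minus TW difference was -0.29 (adjusted p = 0.376).

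The 250 bases before the transcript start are shown for *Bag1*, which fell in SeW, and for *Mcl1*. These genes were chosen because their means lay on opposite sides of TW. The mean of *Mcl1* was above TW in every other group, though none of its differences passed the test. Sequences are RefSeq's on GRCr8, 5' to 3' on the strand of the gene, at chr5:60877060-60877309 (minus strand) for *Bag1* and chr2:185907918-185908167 (plus strand) for *Mcl1*. Capitals mark matches on either strand to the GC box GGGCGG and to the Ets core CCGGAA.
Bag1: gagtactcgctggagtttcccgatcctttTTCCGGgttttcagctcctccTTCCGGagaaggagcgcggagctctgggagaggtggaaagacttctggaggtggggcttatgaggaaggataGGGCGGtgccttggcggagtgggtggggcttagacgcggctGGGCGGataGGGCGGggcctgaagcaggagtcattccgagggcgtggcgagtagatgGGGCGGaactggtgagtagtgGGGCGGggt
Mcl1: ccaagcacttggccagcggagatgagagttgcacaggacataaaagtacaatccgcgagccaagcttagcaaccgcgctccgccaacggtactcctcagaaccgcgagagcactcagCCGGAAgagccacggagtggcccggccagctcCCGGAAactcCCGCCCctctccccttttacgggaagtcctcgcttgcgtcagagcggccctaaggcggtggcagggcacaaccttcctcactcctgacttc

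The *Bag1* window held 5 GC boxes and 2 Ets cores and the *Mcl1* window 1 GC box and 2 Ets cores. Of 33469 RefSeq rat windows of this length, 30.5% held a GC box and 12.6% an Ets core; the Ets core was chosen after the sequences were seen. Neither window held a CCAAT box (CCAAT, in 34.0% of windows), a TATA box (TATAAA, 12.9%) or the core of the antioxidant response element (TGACNNNGC, 10.1%), all searched on both strands with no overlap between marked matches. Of the 10 genes 8 had a promoter entry, and *Bok* and *Bbc3* had none, so the window of *Bok* could not be shown.

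Of the survival genes, *Mcl1* codes for a short-lived protein that holds Bak1 and Bim. Its bright probe set read 1677 and 1620 in SeW, 2192 and 1555 in DSW1200, 1898 and 1363 in WR, and 1445 and 604 in TW. SeW and DSW1200 were above both TW arrays and WR overlapped TW. The TW arrays stood 1.26 apart on the log2 scale, more than in 93.9% of tested genes. The log2 difference from TW was 0.82 in SeW (SE 0.35, adjusted p = 0.231), 0.98 in DSW1200 (adjusted p = 0.617) and 0.78 in WR (adjusted p = 0.510). These values turned on the TW arrays: without TW replicate 1 they were 1.45 (adjusted p = 0.0224), 1.61 (0.0272) and 1.41 (0.0338), and without TW replicate 2 they were 0.19, 0.35 and 0.15.

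On the other *Mcl1* probe set the TW arrays were close together. It read 148 and 141 in SeW, 118 and 107 in DSW1200, 124 and 94.6 in WR, and 98.1 and 107 in TW. SeW was above all other arrays there, with a log2 difference from TW of 0.50 (SE 0.20, adjusted p = 0.219), against 0.13 in DSW1200 and 0.08 in WR. SeW was above TW without overlap on both probe sets, and none of the differences passed the test.

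*Bcl2l1* (Bcl-xL) read 37.1 and 21.7 in SeW, 59.4 and 22.7 in DSW1200, 25.7 and 29.6 in WR, and 26.6 and 41.0 in TW on its bright probe set. All groups overlapped, and the DSW1200 arrays stood 1.39 apart on the log2 scale, more than in 95.9% of tested genes. Its differences from TW were -0.22 in SeW (95% interval -1.22 to 0.78), 0.15 in DSW1200 and -0.26 in WR, none of them past the test. A change of *Bcl2l1* within that interval was not detectable with 2 arrays per group.

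*Bcl2* itself was dim (geometric mean 2.00). It read 0.33 and 2.46 in SeW, 4.86 and 0.95 in DSW1200, 5.39 and 3.95 in WR, and 0.49 and 0.63 in TW. Values below 1 were set to 1 before logs were taken, which applied to 4 of the 8 arrays, both TW arrays among them. No fold change is given.

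Of the 4 BH3-only genes none passed the test in any comparison. *Bbc3* (Puma), a target gene of p53, read 22.4 and 22.8 in SeW, 31.4 and 28.4 in DSW1200, 24.2 and 23.8 in WR, and 44.5 and 36.9 in TW. No groups overlapped: SeW was lowest, followed by WR, DSW1200 and TW, with SeW and WR close to each other. In SeW the log2 difference from TW was -0.84 (SE 0.24, unadjusted p = 0.00588, adjusted p = 0.100), in WR -0.76 (adjusted p = 0.453) and in DSW1200 -0.44 (adjusted p = 0.633). SeW and WR differed by -0.08 (95% interval -0.62 to 0.45). With the values as deposited the SeW minus TW difference was 0.16, so the place of TW above SeW depends on the scaling.

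*Bcl2l11* (Bim) had its highest normalized values in WR, an order that depends on the scaling. Its bright probe set read 34.6 and 45.5 in SeW, 38.6 and 14.3 in DSW1200, 52.7 and 53.1 in WR, and 21.6 and 36.5 in TW. Both WR arrays were above the other 6, which held for 3.53% of all tested genes. As deposited it read 52.9 and 64.5 in SeW, 27.1 and 12.2 in DSW1200, 54.4 and 50.3 in WR, and 20.7 and 21.0 in TW, with SeW and WR overlapping and the highest value in SeW. WR minus TW was 0.91 (SE 0.43, adjusted p = 0.538), and DSW1200 minus WR was -1.17 (unadjusted p = 0.0226, adjusted p = 0.841). Another probe set, whose geometric mean of 6.98 lay just above the dim limit, read 6.00 and 6.29 in SeW, 6.20 and 10.1 in DSW1200, 11.0 and 12.3 in WR, and 10.2 and 1.73 in TW, again with both WR arrays on top.

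*Bid*, which caspase-8 cuts to link death receptors to mitochondria, read 69.4 and 53.4 in SeW, 62.0 and 51.8 in DSW1200, 42.2 and 43.3 in WR, and 35.2 and 60.2 in TW. SeW was above WR without overlap, with a log2 difference of 0.51 (SE 0.28, adjusted p = 0.405), and overlapped TW, from which it differed by 0.40 (adjusted p = 0.462). *Bad*, which is kept from the survival proteins when it is phosphorylated, read 23.1 and 30.8 in SeW, 31.3 and 23.3 in DSW1200, 31.6 and 22.4 in WR, and 25.9 and 38.4 in TW. All groups of *Bad* overlapped, and its differences from TW lay between -0.25 and -0.23 in the 3 comparisons, each with an SE of 0.32.

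**Figure D2:**
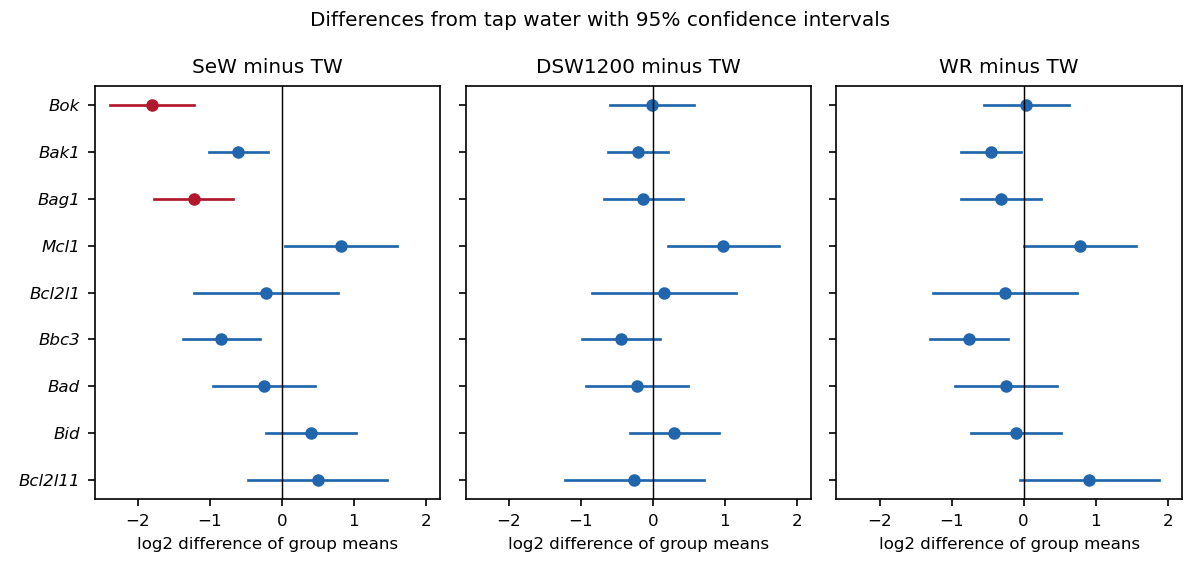
Log2 difference of each of the 9 tested genes from TW in SeW, DSW1200 and WR (x axis, log2 units), with 95% confidence intervals from limma; red marks an adjusted p under 0.05. *Bok* (-1.80) and *Bag1* (-1.22) are red in SeW and no gene is red in DSW1200 or WR.

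The 3 comparisons with TW share the TW arrays, so their values are set side by side and not correlated. The median log2 difference over the 9 tested members was -0.24 in SeW, -0.13 in DSW1200 and -0.25 in WR, with 3 members above TW and 6 below in each, beside medians of -0.04, -0.02 and -0.01 over all tested genes. Against DSW1200 the SeW median was -0.37, with 2 members above and 7 below (all genes -0.04). Counting members whose 2 arrays lay wholly on one side of the other group gave 5 of 9 for SeW against TW (51.2% of all tested genes), 3 for DSW1200 against TW (35.9%), 3 for WR against TW (39.7%), 4 for SeW against DSW1200 (53.9%), 5 for SeW against WR (54.2%) and 4 for DSW1200 against WR (35.6%). These shares of the members were near those of all genes. A change of 2-fold in the group mean, the methods' criterion, was seen for *Bok* and *Bag1* in SeW against TW (5.88% of all genes) and against DSW1200 (5.54%) and for *Bok* against WR (4.60%). No member reached it in DSW1200 against TW (3.21%), WR against TW (3.56%) or DSW1200 against WR (2.55%). In DSW1200 against WR *Bcl2l11* was just short of it, with group means of 26.5 and 52.9. Its difference of mean log2 values there, -1.17, is over 2-fold. *Bok*, *Bbc3* and *Bag1* had both SeW arrays below the other 6 (13.0% of all genes), and *Bak1* and *Bbc3* had both TW arrays above the other 6 (5.92%), an order that turned for SeW with the values as deposited.

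By role, 1 of 2 effectors fell in SeW against TW (*Bok*), the cochaperone *Bag1* fell, and 0 of 4 BH3-only genes and 0 of 2 tested survival genes passed, where 1.91% of all tested genes did. With so few genes in a role, a count of 0 is near that share and says nothing particular to the role. *Bok* promotes death and *Bag1* favors survival, so the members that fell do not share a role.

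**Figure D3:**
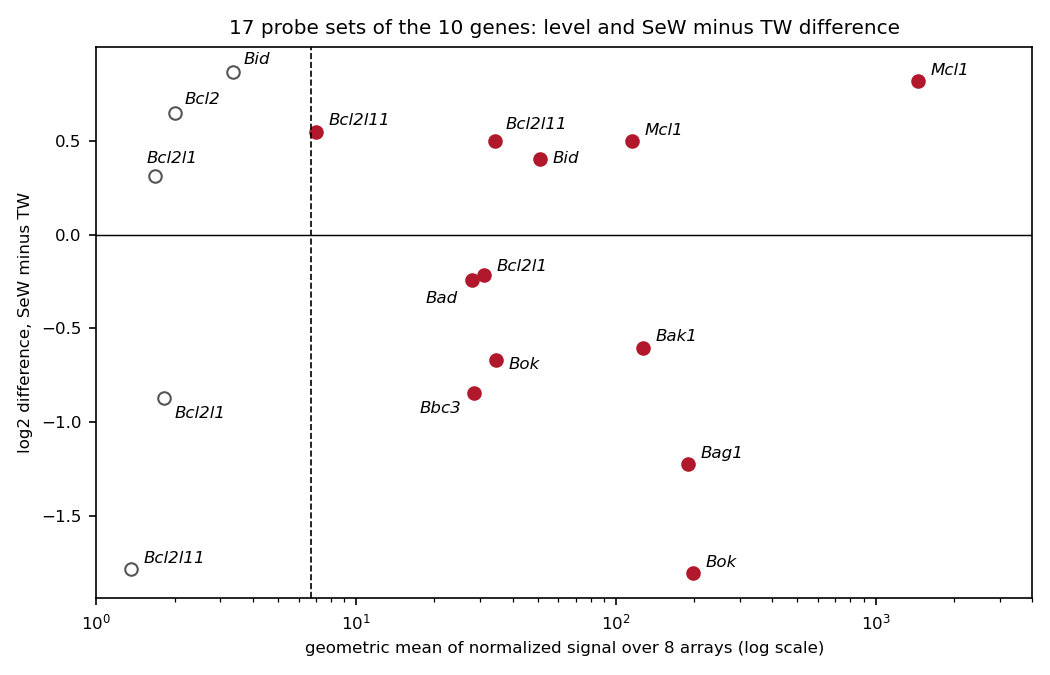
All 17 probe sets of the 10 genes, by geometric mean of normalized signal over 8 arrays (x, log axis) and log2 difference of SeW minus TW (y). Open circles left of the dashed line at 6.69 are the 5 dim probe sets. The *Bok* probe sets lie at -1.80 and -0.67 and the *Mcl1* probe sets at 0.82 and 0.50.

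The dim probe sets were 1 of *Bcl2*, 2 of *Bcl2l1*, 1 of *Bid* and 1 of *Bcl2l11*, with geometric means between 1.36 and 3.36. The *Bcl2l11* one read below 1 on all 6 SeW, DSW1200 and WR arrays, against 3.73 and 3.18 in TW. One of the dim *Bcl2l1* probe sets read 3.03 and 3.86 in DSW1200 and lay between 0.33 and 2.44 on the other 6 arrays. The dim *Bid* probe set ranged between 1.10 and 7.14 and the other *Bcl2l1* one between 0.15 and 7.04, with no group apart from the rest. Nearest to the limit stood a *Bcl2l11* probe set at 6.98 on the passing side and the dim *Bid* probe set at 3.36 below it.

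The tested genes nearest to *Bok*, by root mean square distance of log2 values centered on their mean over 8 arrays, were *Bmal1*, a core transcription factor of the circadian clock (0.25), *Znhit6*, which helps assemble small nucleolar RNPs (0.31), and *Pmvk*, a kinase of the mevalonate pathway (0.32). *Bmal1* averaged 19.8 in SeW, 51.5 in DSW1200, 62.3 in WR and 51.8 in TW, and *Pmvk* 56.9, 172, 153 and 162 in the same order of groups. Both had their lowest mean in SeW, as *Bok* did, which follows from choosing them by their distance from *Bok* on these arrays. *Bag1* was nearest to *Znf48*, *Cops2* (a subunit of the COP9 signalosome) and *Tmem135*, at 0.15 to 0.16. *Cops2* averaged 198 in SeW, 363 in DSW1200, 341 in WR and 377 in TW. Nearest to *Mcl1* were *Plat* (tissue plasminogen activator), *Mef2b* and *Mex3c*, at 0.17 to 0.18, and *Mex3c* averaged 295 in SeW, 326 in DSW1200, 317 in WR and 199 in TW.

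Other genes of the pathway, from lists set by known role, did not pass in any of the 6 comparisons. They were 0 of 7 tested genes of the remaining Bcl-2 family, 0 of 7 BAG and Hsp70 partners, 0 of 10 genes downstream of mitochondria and 0 of 17 upstream regulators. Between 0% and 2.72% of all tested genes passed in these comparisons, so counts of 0 in lists of this size are near the background. The median log2 difference of SeW minus TW was 0.0144, -0.0111, 0.0920 and -0.15 in the 4 lists in that order, beside -0.04 over all tested genes. *Bcl2l2* (Bcl-w, a survival gene) read 66.9 and 73.3 in SeW, 54.4 and 31.7 in DSW1200, 45.9 and 61.7 in WR, and 41.7 and 41.2 in TW (SeW minus TW 0.76, SE 0.28, adjusted p = 0.179). *Bcl2l12* was at 17.2 and 19.6 in SeW and 17.1 and 17.3 in DSW1200, both groups below 25.3 and 27.3 in WR and 25.9 and 31.2 in TW (DSW1200 minus TW -0.72, adjusted p = 0.617; SeW minus TW -0.63, adjusted p = 0.238).

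*Hspa4*, a nucleotide exchange factor of Hsp70 as Bag1 is, read 28.5 and 19.7 in SeW, 22.1 and 22.9 in DSW1200, 19.4 and 27.8 in WR, and 8.20 and 11.1 in TW. Both TW arrays were below the other 6, with log2 differences of 1.31 in SeW (SE 0.35, adjusted p = 0.0810), 1.24 in DSW1200 (adjusted p = 0.617) and 1.28 in WR (adjusted p = 0.398). *Stub1*, the ubiquitin ligase that binds Hsp70, differed from TW by -0.39 in SeW and -0.49 in WR (adjusted p = 0.334 and 0.506).

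Downstream of the mitochondria, *Diablo* (Smac, which frees caspases from their inhibitors) averaged 59.0 ± 15.4 in SeW and 82.7 ± 10.6 in TW (SD, n = 2 each), with SeW below the other 6 arrays (log2 difference -0.51, adjusted p = 0.256). *Apaf1*, which cytochrome c assembles into the apoptosome, differed from TW by 0.40 in SeW, 0.38 in DSW1200 and 0.32 in WR (adjusted p = 0.300, 0.620 and 0.611). Upstream, *Cdkn1a* (p21, a p53 target like *Bbc3*) averaged 251 ± 25.9 in SeW and 402 ± 101 in TW (-0.66, adjusted p = 0.188). In WR, where *Bbc3* differed from TW by -0.76, *Cdkn1a* differed by 0.03. *Ywhae*, a 14-3-3 protein of the family that holds phosphorylated Bad, averaged 407 ± 8.47 in SeW and 287 ± 7.80 in TW (0.50, adjusted p = 0.109) and differed by 0.63 from DSW1200 (adjusted p = 0.0540).

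The fall of *Bok* and *Bag1* in SeW came with other differences of the SeW arrays, whose part in it was not tested. The beta-actin ratio was 13.6 and 10.9 on the SeW arrays and 20.6 to 32.8 on the arrays of the other groups. A fit with this ratio as a covariate therefore cannot well separate it from the SeW group. With its log2 as a covariate the SeW minus TW difference of *Bok* was -1.86 (SE 0.69, adjusted p = 0.537) and that of *Bag1* -1.80 (adjusted p = 0.507). In that setting 0 of 9258 tested genes passed in SeW against TW. All 6 tested myeloid markers were lower in SeW than in TW (median log2 difference -0.60), with summed signals over the list of 233 and 274 in SeW, 440 and 492 in DSW1200, 489 and 572 in WR, and 316 and 507 in TW. The 4 tested lymphocyte markers were lower too (median -0.32), with sums of 193 and 223 in SeW, 345 and 408 in DSW1200, 333 and 339 in WR, and 211 and 325 in TW, so SeW overlapped TW and lay below DSW1200 and WR. *Cd3e*, *Cd8a*, *Cd2*, *Cd79b* and *Ms4a1* were dim, as were the myeloid markers *Itgam* and *Cd14*. All 6 tested enterocyte markers were higher in SeW, with sums of 29053 and 30932 in SeW against 24840 and 25548 in TW, and the epithelial label of the samples was met by 7 of 7 epithelial markers above the dim limit.

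All 4 tested crypt and cycling markers were higher in SeW than in TW, with a median log2 difference of 1.00. *Mki67* (0.89), *Top2a* (1.10) and *Ccnb1* (1.17) each had an unadjusted p under 0.05, with adjusted p between 0.121 and 0.224. The summed signals of that list overlapped, at 498 and 658 in SeW and 413 and 567 in TW, beside 297 and 333 in DSW1200 and 505 and 644 in WR. *Lgr5* and *Ascl2*, markers of crypt stem cells, were dim. In SeW against TW the one marker past the test was *Defa24*, a Paneth cell defensin, among 7 secretory markers (log2 difference 2.13, adjusted p = 0.0166), with none of the epithelial, enterocyte, crypt and cycling, lymphocyte, myeloid, 8 stromal or 3 pancreatic markers. *Defa24* read 225 and 137 in SeW, 134 and 96.0 in DSW1200, 367 and 502 in WR, and 31.0 and 51.6 in TW. It was lowest in TW and highest in WR (WR minus TW 3.42, adjusted p = 0.00934), so its difference was not one of SeW alone.

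In the other comparisons where *Bok* or *Bag1* was called, markers passed as well. *Gzma*, a granzyme of cytotoxic lymphocytes, was lower in SeW than in DSW1200 (log2 difference -1.28, adjusted p = 0.0204) and than in WR (-1.10, adjusted p = 0.0464). *C1qa*, a complement gene of macrophages, was lower in SeW than in WR (-1.24, adjusted p = 0.0494), and *Apoa4*, an apolipoprotein of enterocytes, was higher (0.89, adjusted p = 0.0494).

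**Figure D4:**
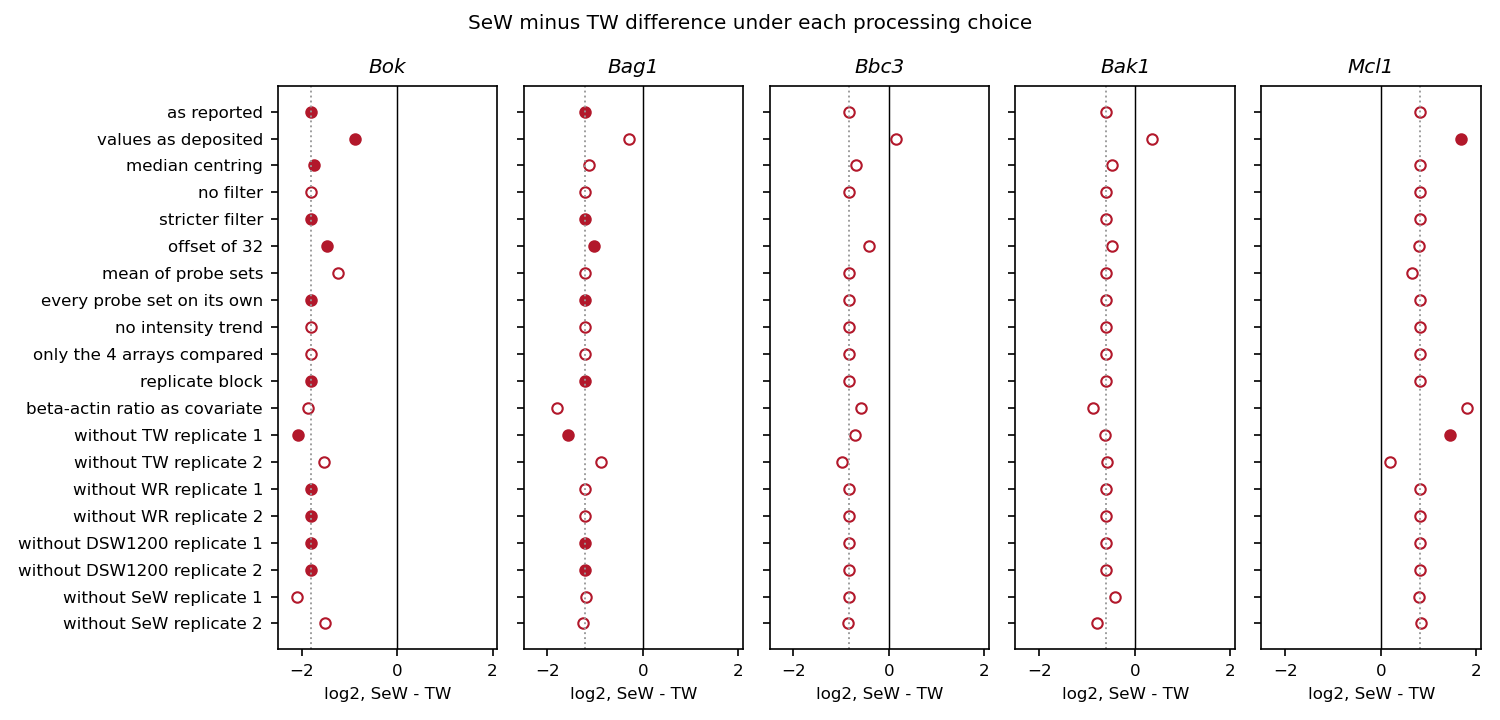
SeW minus TW log2 difference (x axis) of *Bok*, *Bag1*, *Bbc3*, *Bak1* and *Mcl1* under each way of processing (rows); filled points have an adjusted p under 0.05, and the dotted line is the reported value. *Bok* lies between -2.10 and -0.88 in every row, whereas *Bbc3* and *Bak1* cross 0 with the values as deposited.

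The direction of *Bok* and *Bag1* in SeW against TW was lower under all 19 alternatives, with *Bok* past the threshold in 11 and *Bag1* in 7. In many of these the direction could not change. Alternatives that alter only the set of tested genes, the estimate of the spread or the WR and DSW1200 arrays keep the same difference. Its size could change with other scaling, an offset, averaged probe sets, the covariate, or a SeW or TW array left out. After normalization both SeW arrays lay below both TW arrays on every probe set of *Bok* and *Bag1*. Leaving out an array, an offset or averaging therefore could not turn the direction. Only the values as deposited, median centering or the covariate could have turned it. Without SeW replicate 1 *Bok* had an adjusted p of 0.0525, without SeW replicate 2 0.134 and without TW replicate 2 0.0545, where an array left alone in its group was assumed to vary like the other groups. *Bag1* lost its call without either SeW array (adjusted p = 0.186 and 0.234), either WR array (0.0717 and 0.0718) or TW replicate 2. In SeW against DSW1200, *Bok* lost its call without either DSW1200 array (0.0629 and 0.0580) or SeW replicate 2 (0.131), and *Bag1* without either SeW array (0.203 and 0.254), DSW1200 array (0.0915 and 0.168) or WR array (0.0805 and 0.0809). In SeW against WR, *Bok* lost it without either SeW array (0.0693 and 0.221) or WR array (0.133 and 0.119), and *Bag1* passed without either TW array (0.0460 and 0.0459). As deposited, where the median tested gene was 0.92 higher in SeW than in TW on the log2 scale, *Bok* was at -0.88 (adjusted p = 0.0286) and *Mcl1*, *Bid* and *Bcl2l11* passed as higher, at 1.68, 1.37 and 1.49; 4380 of 9258 genes passed in that setting.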

How the data were processed

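RNA of 8 samples was hybridized to Affymetrix rat arrays. The authors deposited an intensity for each probe set, computed by MAS5 per the submitters' processing notes and held on a linear scale; version and scaling target are not given in the sources used here. The methods state quantile normalization, but the deposited intensities differ in their quantiles, so normalization was done here. Arrays were quantile normalized on the linear scale, values under 1 set to 1, and log2 taken. Probe sets were named through the platform's annotation and RefSeq (20826 with 1 symbol, 436 with several, 9837 with none); those with several were left out. Each gene was read by its brightest probe set, and 9258 genes above a geometric mean of 6.69 were tested.

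limma 3.58.1 in R 4.3.3 fitted 1 model to all 8 arrays (4 residual degrees of freedom, intensity trend) with Benjamini-Hochberg adjustment over tested genes. The 2 arrays per group limit the precision: the median SE of a log2 difference was 0.26, and an exact permutation test of 2 against 2 could not go below p = 0.333. The scripts were tested on simulated data.

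The members and lists were chosen with earlier results of these data known. Named were all members and their probe sets, up to 2 genes per other pathway list with the smallest p in a comparison with TW, and the 3 genes nearest to *Bok*, *Bag1* and *Mcl1*. Markers were named by list.

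Alternatives were values as deposited, median centering, no filter, a stricter filter (signal over 36.2), an offset of 32, mean of probe sets, every probe set alone, no trend, a fit to the 4 arrays of a comparison, a block for replicate number, the beta-actin ratio as covariate, each array left out, and the methods' 2-fold criterion.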

Additional observations from a re-analysis of the deposited data

How the results depend on the processing

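With 2 arrays per group, calls near the threshold moved with most choices. Members past the threshold in SeW against TW (2 as reported) numbered 4 with the values as deposited (*Bok* lower, *Mcl1*, *Bid* and *Bcl2l11* higher), 1 with median centering, and 0 with no filter, no intensity trend, the mean of probe sets, a fit to 4 arrays or the beta-actin ratio as covariate, and 0 to 3 with an array left out. In SeW against DSW1200 (2 as reported) the count was 1 with median centering or every probe set on its own, 0 with no filter, the mean of probe sets, no trend or the covariate, and 0 to 2 with an array left out. SeW against WR (1 as reported) gave 2 as deposited or with only the 4 arrays compared, 0 with median centering, no filter, the mean of probe sets, no trend or the covariate, and 0 to 2 with an array left out. DSW1200 and WR against TW (0 as reported) gave 0 to 1 with an array left out, the 1 being *Mcl1* without TW replicate 1. By the F test (1 as reported) 4 passed as deposited, 0 with median centering, no filter, the mean of probe sets, no trend or the covariate, and 0 to 3 with an array left out; it cannot be run on 4 arrays. The methods' 2-fold criterion, taken on group means of signal, gave the same counts as the test in all 6 comparisons. In DSW1200 against WR this depended on the measure, since *Bcl2l11* was just short on signal means but over 2-fold on mean log2 values.

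With the replicate number as a block, the F test passed 0 members and the counts in the 6 comparisons stayed at 2, 0, 0, 2, 1 and 0 in SeW, DSW1200 and WR against TW, SeW against DSW1200 and WR, and DSW1200 against WR. Deviations of same-numbered arrays correlated between -0.06 and 0.04, so the values show no pairing by number. The labels do not say whether arrays were paired.

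Changes of direction concerned only differences that had not passed the test as reported, including differences of *Bok* and *Bag1* among DSW1200, WR and TW. As deposited, SeW minus TW turned to 0.77 for *Bcl2l1*, 0.37 for *Bak1*, 0.74 for *Bad* and 0.16 for *Bbc3*, WR minus TW to 0.18 for *Bcl2l1*, 0.19 for *Bad* and 0.31 for *Bid*, DSW1200 minus TW to 0.0267 for *Bok*, and DSW1200 minus WR to -0.10 for *Bag1*. Unscaled, the median tested gene shifted by 0.92 in SeW, 0.05 in DSW1200 and 0.38 in WR relative to TW. Median centering gave -0.15 for *Bok* in WR minus TW and 0.0523 in DSW1200 minus WR. The mean of probe sets gave -0.25 for *Bcl2l11* in SeW, -0.38 for *Bid* in DSW1200, and -0.0501 for *Bok* and 0.55 for *Bid* in WR, all minus TW. The covariate gave 1.43 for *Bcl2l1* in SeW minus TW, and -0.64 for *Bcl2l1*, 0.0203 for *Bok*, 0.16 for *Bad* and 0.15 for *Bag1* in DSW1200 minus TW. Leaving out an array, the differences from TW ranged over -0.60 to 0.17 (*Bcl2l1*) and -0.525 to 0.0422 (*Bad*) in SeW; over -0.54 to 0.85 (*Bcl2l1*), -0.28 to 0.27 (*Bok*), -0.51 to 0.0584 (*Bad*), -0.0873 to 0.69 (*Bid*), -0.97 to 0.46 (*Bcl2l11*) and -0.48 to 0.22 (*Bag1*) in DSW1200; and over -0.57 to 0.0520 (*Bcl2l1*), -0.23 to 0.31 (*Bok*), -0.53 to 0.0374 (*Bad*), -0.49 to 0.28 (*Bid*) and -0.67 to 0.0384 (*Bag1*) in WR. *Bok* in DSW1200 minus WR ranged over -0.29 to 0.20. The cause of these shifts was not tested. Signal over background limits *Bcl2* and the other 4 dim probe sets.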
